A study of Mus musculus with 24 samples.

Results

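The genes described here are 10 transcriptional targets of the tumor suppressor p53: Cdkn1a, Mdm2, Phlda3, Eda2r, Bax, Ccng1, Sesn2, Trp53inp1, Zmat3 and Bbc3. They were taken by symbol from a list of well-known p53 targets, and all 10 were found among the 24346 gene symbols of each library. The choice was made with earlier results of these data known, so comparisons of the 10 with all genes are descriptions. All 10 passed the filter on low values, which kept 13799 genes with at least 1 FPKM in at least 4 libraries. FPKM, fragments per kilobase of transcript scaled by mapped fragments, is a level corrected for transcript length, so it can be set side by side between genes.

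The study sequenced RNA of mouse colorectal tissue after AOM/DSS, a treatment that pairs the carcinogen azoxymethane with dextran sulfate sodium, which injures the colon lining and causes colitis. All 24 libraries, the WT ones included, carry this treatment, so no library shows an untreated colon. The genotype label is c-MAF_KO (here KO) or WT, and the tissue label is tumor or normal. The KO label covers 9 tumor and 6 normal libraries, and the WT label 5 tumor and 4 normal ones. Sample titles split the KO libraries by a number and zygosity into KO-8-homo, KO-8-hetero and KO-1-hetero, each with 3 tumor and 2 normal libraries. Titles split the WT libraries into WT-young, with 4 tumor and 2 normal libraries, and WT-old, with 1 tumor and 2 normal libraries. The leading numbers, the ages behind the age words, the strain, and the construction of the KO allele are not explained in the labels. The labels do not say which libraries came from separate animals, so p-values measure the spread between these libraries, which may be partly technical. Maf, the gene that the KO label names, measured 2.62 to 7.40 FPKM in KO tumors and 1.63 to 7.26 FPKM in WT tumors, so its transcript level did not separate the labels. In normal tissue Maf measured 1.52 to 6.27 FPKM under the KO label and 1.37 to 2.82 FPKM under the WT label. KO and WT below therefore mean the libraries so labelled.

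The p53 protein is held at a low level in unstressed cells, largely because Mdm2 marks it for degradation. DNA damage, oncogene activity or nutrient stress release it, and it then binds a pair of short half-sites near its target genes and raises their transcription. In the intestine these targets bring crypt cells to a halt or to death after damage, and in chemically induced colon tumors of mice p53 is often still intact. The 10 genes cover the main arms of the response. Cdkn1a (p21, a cyclin-dependent kinase inhibitor) and Ccng1 (cyclin G1) act on the cell cycle. Mdm2 closes the feedback loop on p53. Bax and Bbc3 (PUMA) open the mitochondrial route to apoptosis, Eda2r is a death-domain receptor of the TNF receptor family, and Phlda3 restrains AKT signalling. Trp53inp1 takes part in cell death and autophagy, Sesn2 (sestrin 2) restrains mTORC1 under stress, and Zmat3 is an RNA-binding protein that controls splicing.

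Promoter sequence was read from RefSeq's table for GRCm38.p6 to show where the letters of a p53 half-site lie near these genes. Windows of 250 bases upstream of a transcription start were searched on both strands for the p53 half-site consensus, which reads the same on both strands. Of the 10 genes, 8 had a window in that table, in 11 windows. An exact half-site occurred in 4 of these 11 windows, 1 each of Bax, Mdm2, Ccng1 and Cdkn1a, against 7.13% of the 32851 windows of all genes. A pair of half-sites with at most 1 mismatch outside the core each and at most 13 bases between them occurred in 1 of the 11 windows, that of Cdkn1a, against 1.14% of all windows. The stretches around these matches are shown in the orientation of transcription. The genes were chosen as known p53 targets, so matches near them are not independent of that choice. Capitals mark the half-site matches, and all of them lie outside annotated exons. The Bax stretch is chr7:45467055-45467134 on the minus strand, the Mdm2 stretch is chr10:117710900-117710979 on the minus strand, the Ccng1 stretch is chr11:40755427-40755506 on the minus strand and the Cdkn1a stretch is chr17:29090871-29090975 on the plus strand.
Bax: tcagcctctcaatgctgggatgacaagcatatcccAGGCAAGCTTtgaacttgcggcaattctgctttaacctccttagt
Mdm2: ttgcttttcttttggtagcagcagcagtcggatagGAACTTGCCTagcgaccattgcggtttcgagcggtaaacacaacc
Ccng1: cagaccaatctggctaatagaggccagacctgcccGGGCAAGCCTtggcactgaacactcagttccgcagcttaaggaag
Cdkn1a: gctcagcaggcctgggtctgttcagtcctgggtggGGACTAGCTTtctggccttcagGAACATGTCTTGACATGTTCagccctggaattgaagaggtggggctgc

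In Bax the match lay 201 to 192 bases before the start, in Mdm2 186 to 177 bases and in Ccng1 185 to 176 bases. The 20 capitals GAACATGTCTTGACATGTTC in Cdkn1a are 2 half-sites with 0 bases between them and 1 mismatch in all. They end 32 bases before the upstream start of Cdkn1a and 2822 bases before its downstream start in the same table. A match of letters is a description of the sequence, and no binding was measured here.

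Between the genes, the order of levels was nearly the same in both tissues. In the 14 tumors Cdkn1a was highest at 115 ± 29.3 FPKM (mean ± SD, n = 14), and Bax followed at 107 ± 19.97 FPKM, a difference within their spread. Ccng1 measured 48.9 ± 8.80 FPKM, Trp53inp1 33.9 ± 11.2 FPKM, Phlda3 23.5 ± 8.47 FPKM and Mdm2 18.7 ± 1.60 FPKM. Zmat3, Eda2r, Sesn2 and Bbc3 formed the low end at 4.71 ± 1.28, 4.27 ± 1.74, 3.95 ± 1.15 and 3.14 ± 0.927 FPKM, and neighbours in this order lay within each other's spread. In the 10 normal libraries the mean ran from 109 ± 26.8 FPKM for Cdkn1a to 1.18 ± 0.462 FPKM for Eda2r. Mdm2 had the smallest spread among the tumors relative to its mean, and Eda2r the largest.

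**Figure D1:**
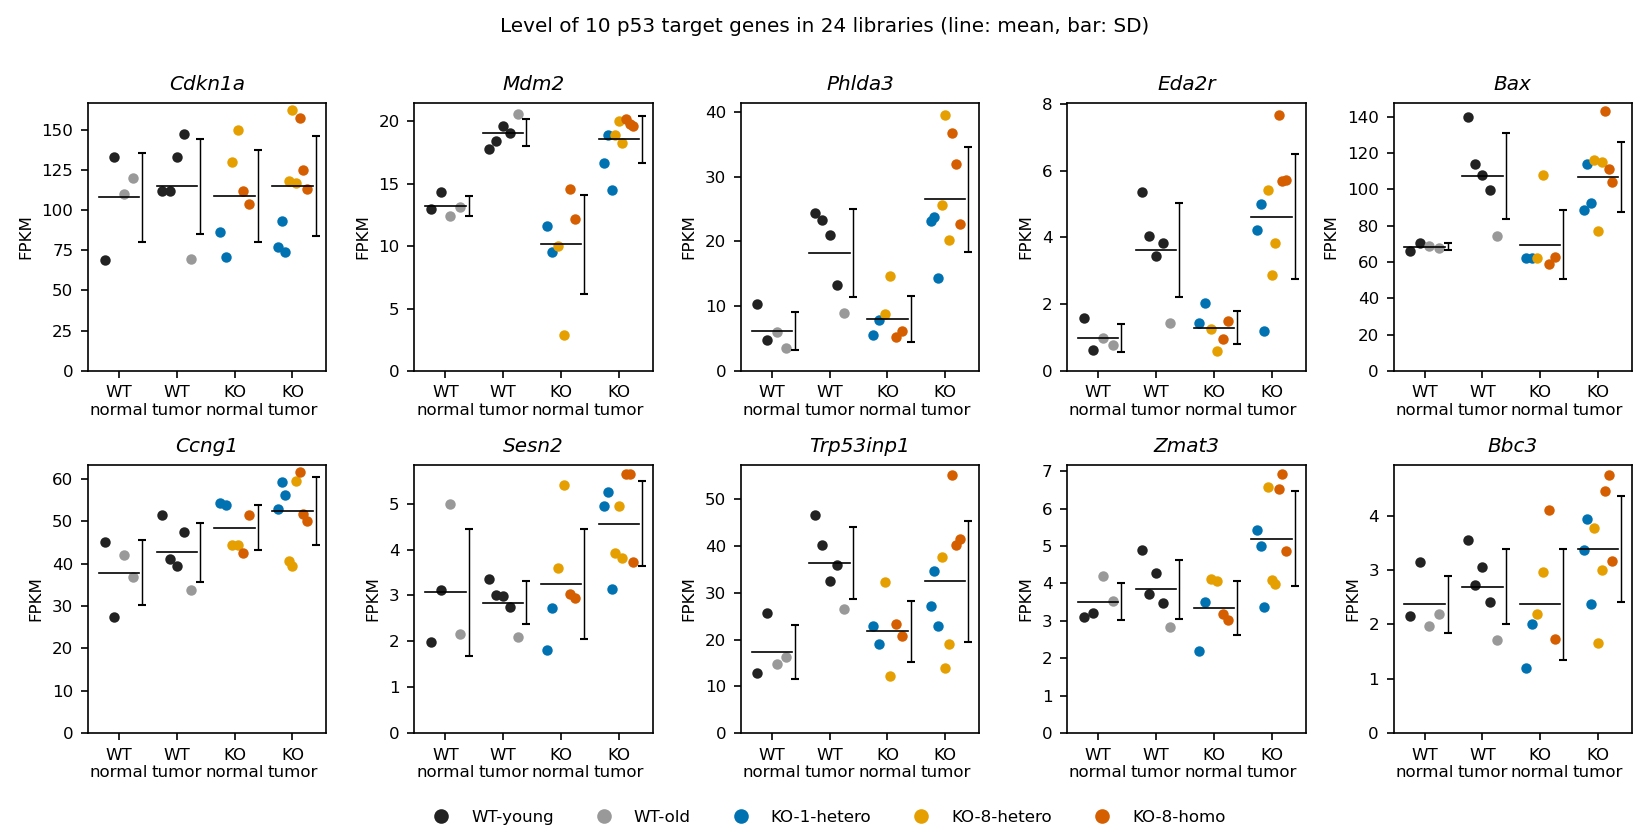
Level of each of the 10 genes in FPKM (vertical axis, from 0) in every library, by genotype label and tissue (horizontal axis); points are libraries coloured by title group, the horizontal line is the mean and the bar beside it the SD. Phlda3 and Eda2r stand well above normal tissue in nearly all tumors, while the 4 groups of Cdkn1a lie over the same range.

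Tumor against normal tissue gave the clearest differences, and every call among the 10 genes was higher in tumors. Under the WT label Phlda3, Eda2r, Trp53inp1 and Bax were higher in tumors, 4 of 10 genes, against 15.5% of all 13799 genes called higher and 14.8% called lower in that comparison. Under the KO label Phlda3, Eda2r, Mdm2, Bax, Zmat3 and Sesn2 were higher in tumors, 6 of 10 genes, against 24.1% of all genes called higher and 23.2% called lower. A gene was called when its limma p-value, adjusted by the Benjamini-Hochberg method over all 13799 genes, was below 0.05. Differences are in log2(FPKM + 1), a scale that understates the change of low genes such as Eda2r, Sesn2, Zmat3 and Bbc3. The median difference of the 10 genes was 0.34 under the WT label and 0.50 under the KO label, and that of all genes was 0.03 and 0.02.

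Phlda3, the AKT antagonist, had the largest tumor difference of the 10 in log2(FPKM + 1) under both labels. With a pseudocount of 0.1 the WT difference was larger for Eda2r, at 1.72 against 1.56 for Phlda3. WT-young tumors measured 24.4, 23.3, 21.0 and 13.3 FPKM and the WT-old tumor 8.89 FPKM, against 10.4, 4.74, 5.98 and 3.57 FPKM in WT normal tissue. The 4 WT-young tumors lay above all WT normal libraries, and the WT-old tumor lay inside their range. The KO tumors ran from 14.4 FPKM over a median of 23.8 FPKM to 39.6 FPKM, and KO normal tissue from 5.27 over 6.97 to 14.6 FPKM. There the ranges touched only at the lowest KO tumor, KO-1-hetero replicate 3, and the highest KO normal library, KO-8-hetero replicate 2. By limma the rise was 1.42 ± 0.32 (SE, adjusted p = 0.0024) under the WT label and 1.63 ± 0.25 (SE, adjusted p = 3.0e-05) under the KO label.

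Eda2r, the death-domain receptor gene on chromosome X, rose with Phlda3 from a low base. WT-young tumors measured 5.35, 4.03, 3.44 and 3.82 FPKM and the WT-old tumor 1.45 FPKM, against 1.58, 0.639, 0.984 and 0.780 FPKM in WT normal tissue. KO tumors measured 1.21, 4.99 and 7.68 FPKM as lowest, median and highest, and KO normal tissue 0.611, 1.35 and 2.03 FPKM. Again the WT-old tumor and KO-1-hetero tumor replicate 3 were the tumors inside the normal range, and all others lay above it. The limma difference was 1.17 ± 0.30 (SE, adjusted p = 0.0065) under the WT label and 1.23 ± 0.24 (SE, adjusted p = 3.0e-04) under the KO label.

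Of the mitochondrial apoptosis genes, Bax rose in tumors under both labels and Bbc3 passed under neither. Bax measured 140, 114, 108 and 99.5 FPKM in the WT-young tumors and in the WT-old tumor 74.5 FPKM, against 66.3, 70.6, 68.9 and 67.6 FPKM in WT normal tissue. All 5 WT tumors lay above all 4 WT normal libraries. KO tumors measured 77.2, 111 and 143 FPKM as lowest, median and highest, and KO normal tissue 59.1, 62.1 and 108 FPKM. The highest KO normal value belongs to KO-8-hetero replicate 2, and the other 5 KO normal libraries lay between 59.1 and 62.9 FPKM, below every KO tumor. The Bax difference by limma was 0.61 ± 0.18 (SE, adjusted p = 0.014) under the WT label and 0.63 ± 0.14 (SE, adjusted p = 0.0012) under the KO label. With title groups weighted equally, which gives the WT-old tumor more weight, the WT value was 0.43 and missed the threshold (adjusted p = 0.076). Bbc3 ran from 1.71 to 3.55 FPKM in WT tumors and from 1.98 to 3.15 FPKM in WT normal tissue, a limma difference of 0.12 ± 0.22 (SE, adjusted p = 0.70). Under the KO label Bbc3 ran from 1.66 to 4.76 FPKM in tumors and from 1.20 to 4.10 FPKM in normal tissue, a limma difference of 0.40 ± 0.18 (SE, adjusted p = 0.065). Without KO-8-hetero tumor replicate 2, the lowest KO tumor, the KO difference of Bbc3 was 0.49 and passed the threshold (limma adjusted p = 0.019). It also passed when KO-1-hetero tumor replicate 3, KO-8-hetero normal replicate 2 or KO-8-homo normal replicate 1 was left out, with adjusted p-values of 0.047, 0.049 and 0.015. It passed as well with median-of-ratios scaling (limma adjusted p = 0.046), with title groups weighted equally (0.042) and without both libraries that stand apart, KO-8-hetero normal replicate 2 and the WT-old tumor (0.041). With equal weights the KO difference of Bbc3 stayed at 0.40, and the spread, taken within title groups, differed.

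Mdm2, the ubiquitin ligase that p53 itself induces, had the smallest tumor spread of the 10 relative to its mean. WT-young tumors measured 17.8, 18.4, 19.6 and 19.1 FPKM and the WT-old tumor 20.6 FPKM, against 13, 14.3, 12.4 and 13.1 FPKM in WT normal tissue. KO tumors measured 14.5, 18.9 and 20.2 FPKM as lowest, median and highest, and KO normal tissue 2.91, 10.8 and 14.6 FPKM. All WT tumors lay above all WT normal libraries, and under the KO label the ranges touched only at KO-1-hetero tumor replicate 3 and KO-8-homo normal replicate 1. The limma difference was 0.92 ± 0.19 (SE, adjusted p = 4.8e-04) under the KO label and 0.50 ± 0.24 (SE, adjusted p = 0.12) under the WT label. KO-8-hetero normal replicate 2, at 2.91 FPKM, enters the spread that all groups share. Without it, the KO difference was 0.64 (limma adjusted p = 1.3e-05) and the unchanged WT difference of 0.50 passed (limma adjusted p = 0.0012).

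Mdm2, Bax and Trp53inp1 were the 3 of 10 genes whose WT tumors all lay above all WT normal libraries, against 12.3% of all genes. Under the KO label no gene of the 10 separated completely in this way, against 8.48% of all genes.

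Trp53inp1, the stress-induced autophagy and cell death gene, was higher in WT tumors. WT-young tumors measured 46.7, 40.2, 32.6 and 35.9 FPKM and the WT-old tumor 26.5 FPKM, against 12.9, 25.7, 14.7 and 16.2 FPKM in WT normal tissue. The limma rise was 1.05 ± 0.31 (SE, adjusted p = 0.014), and without the WT-old libraries it was 1.04 and missed the threshold (adjusted p = 0.084). KO tumors measured 13.9, 34.6 and 55.2 FPKM as lowest, median and highest, and KO normal tissue 12.1, 21.9 and 32.3 FPKM, with wide overlap. The 3 KO-8-homo tumors, at 55.2, 40.3 and 41.5 FPKM, lay above every KO normal library, and 2 KO-8-hetero tumors, at 13.9 and 19.1 FPKM, were the lowest KO tumors. The KO difference by limma was 0.50 ± 0.24 (SE, adjusted p = 0.094). It passed when KO-8-hetero tumor replicate 2 or KO-8-hetero normal replicate 1 was left out (limma adjusted p = 0.022 and 0.04999), and with the replicate number as a block (0.60, limma adjusted p = 0.030). For tumor against normal, that block kept only libraries with a partner of the same title group and replicate number in the other tissue.

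Zmat3 and Sesn2 passed under the KO label. Zmat3 measured 3.38, 5.01 and 6.93 FPKM in KO tumors as lowest, median and highest, and 2.18, 3.34 and 4.11 FPKM in KO normal tissue. The limma rise was 0.50 ± 0.14 (SE, adjusted p = 0.0050). WT-labelled Zmat3 ran from 2.84 to 4.89 FPKM in tumors and from 3.09 to 4.19 FPKM in normal tissue, with a limma difference of 0.09 ± 0.18 (SE, adjusted p = 0.72). Sesn2 measured 3.15, 4.95 and 5.65 FPKM in KO tumors and 1.81, 2.99 and 5.41 FPKM in KO normal tissue, a limma rise of 0.41 ± 0.17 (SE, adjusted p = 0.043). The call lay close to the threshold. It was lost in 9 of 24 fits without 1 library, when any 1 of KO-1-hetero tumor replicates 1 and 2, KO-8-hetero tumor replicate 2, KO-8-homo tumor replicates 1 and 2, or any KO-1-hetero or KO-8-homo normal library was removed. The value was then 0.30 without KO-1-hetero normal replicate 1 and 0.38 to 0.41 in the 8 other fits. With the replicate number as a block it was 0.55 and was not called (limma adjusted p = 0.062). The adjusted p over all alternatives of this value ran from 0.0068 to 0.13. WT-labelled Sesn2 ran from 2.104 to 3.37 FPKM in tumors and from 1.99 to 4.996 FPKM in normal tissue, a limma difference of -0.03 (adjusted p = 0.92) whose sign changed when the WT-old tumor or WT-old normal replicate 1 was left out.

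Cdkn1a and Ccng1, the cell-cycle members, differed little between tumor and normal tissue. Cdkn1a measured 112, 112, 133 and 147 FPKM in the WT-young tumors and in the WT-old tumor 69.4 FPKM, against 69.1, 133, 110 and 120 FPKM in WT normal tissue. KO tumors measured 74.0, 117 and 162 FPKM as lowest, median and highest, and KO normal tissue 70.8, 108 and 150.4 FPKM. The groups overlapped over nearly their whole range, and the limma differences were 0.08 ± 0.26 (SE, adjusted p = 0.83) under the WT label and 0.07 ± 0.20 (SE, adjusted p = 0.78) under the KO label. Ccng1 ran from 33.8 to 51.5 FPKM in WT tumors and from 27.4 to 45.02 FPKM in WT normal tissue, and from 39.5 to 61.6 FPKM in KO tumors and from 42.5 to 54.3 FPKM in KO normal tissue. Its limma differences were 0.18 ± 0.15 (SE, adjusted p = 0.39) and 0.10 ± 0.12 (SE, adjusted p = 0.50) under the WT and KO labels.

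**Figure D2:**
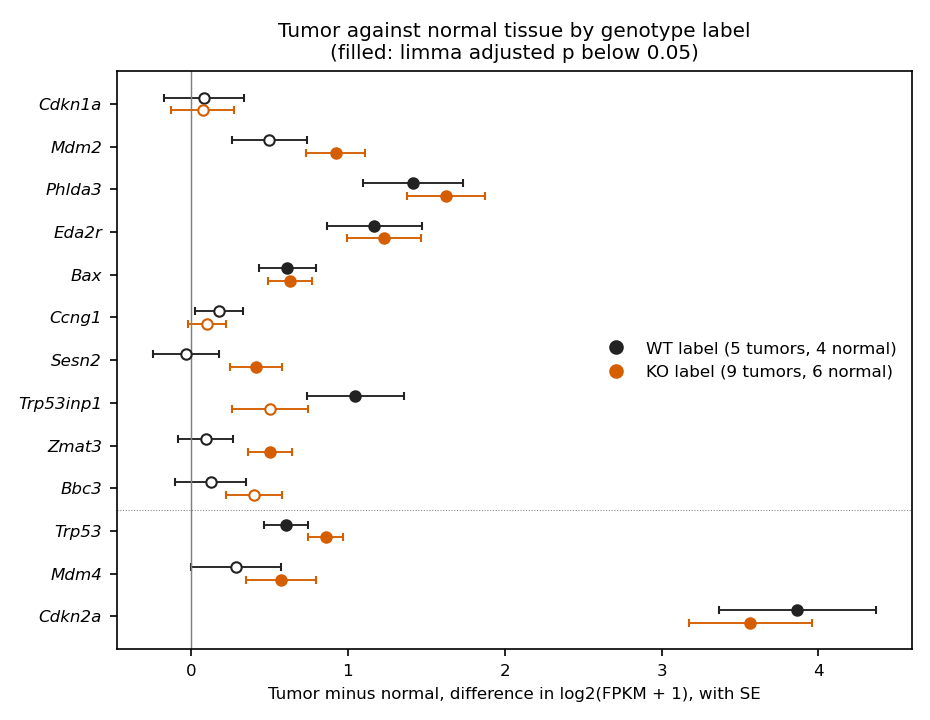
Tumor minus normal difference in log2(FPKM + 1) with its SE (horizontal axis) for the 10 genes and, below the dotted line, Trp53, Mdm4 and Cdkn2a, under the WT label (black) and the KO label (orange); filled points passed the limma threshold of 0.05. Phlda3, Eda2r and Bax are filled under both labels, and both values of Cdkn1a lie close to 0.

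Whether the tumor difference itself depended on the label was tested as an interaction. By limma 0 of the 10 genes and 0% of all genes passed. At an unadjusted p below 0.05 the counts were 0 of the 10 genes and 654 genes in all. The calls that stand under 1 label only, such as Zmat3 and Mdm2 under the KO label or Trp53inp1 under the WT label, are therefore not shown to differ between labels.

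The tissues also differed in their cell type markers. Over all genes, 24.1% were called higher and 23.2% lower in KO tumors. In WT tumors 15.5% of all genes were called higher and 14.8% lower. Goblet cell markers summed to 2607 to 7438 FPKM in WT tumors and 9124 to 16410 FPKM in WT normal tissue, and to 1603 to 9325 FPKM in KO tumors and 11970 to 24200 FPKM in KO normal tissue. In tumors 6 of 8 goblet cell markers were lower under the KO label and 4 of 8 under the WT label. Absorptive colonocyte markers were lower in 6 of 9 and 5 of 9, and smooth muscle markers in 8 of 8 under both labels. Neutrophil markers were higher in 7 of 7 under the KO label and 6 of 7 under the WT label, summing to 89.8 to 1863 FPKM in KO tumors against 6.92 to 37.3 FPKM in KO normal tissue. Macrophage markers were higher in 6 of 8 under both labels. Fibroblast markers were higher in 5 of 8 and lower in 1 under the KO label, and higher in 2 of 8 under the WT label. Proliferation genes were higher in 4 of 18 and lower in 1 under the KO label, and higher in 13 of 18 under the WT label. T cell markers were higher in 1 of 7 under the KO label and 0 of 7 under the WT label, and B and plasma cell markers passed in 0 of 7 under both. The broad colon epithelium list fell in 5 of 10 and 4 of 10, and no marker of any list was at 0 in every library. Relative sequencing depth was 0.69 to 0.853 of the median library in WT normal tissue and 0.898 to 1.23 in WT tumors, and 0.826 to 1.21 and 0.847 to 1.87 in KO normal tissue and tumors. Xist, the RNA of the inactive X chromosome, was above 1 FPKM in 4 of 6 KO normal libraries and 2 of 9 KO tumors, all in KO-8-hetero or KO-1-hetero, and in 0 of the 9 WT libraries. Without these 6 libraries the only KO normal libraries left were the 2 of KO-8-homo, while KO tumors of every KO title group remained. Tissue and title group are therefore partly confounded in that fit. In it Phlda3, Eda2r, Mdm2, Bax and Zmat3 were still called higher in KO tumors, and Sesn2 was not (0.55, limma adjusted p = 0.065). The part of the markers and of depth in the values of the p53 target genes was not tested. In bulk tissue, fewer cells of a type and less RNA per cell cannot be told apart.

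Upstream of the 10 genes, p53's own transcript was higher in tumors. Trp53 measured 50.0 ± 7.07 FPKM in WT tumors (SD, n = 5) and 32.7 ± 6.77 FPKM in WT normal tissue (SD, n = 4), a limma rise of 0.61 ± 0.14 (SE, adjusted p = 0.0028). Under the KO label it measured 46.6 to 70.9 FPKM in tumors and 26.7 to 33.4 FPKM in normal tissue, without overlap, a limma rise of 0.86 ± 0.11 (SE, adjusted p = 4.3e-06). Cdkn2a, the locus that encodes both the kinase inhibitor p16 and the Mdm2 inhibitor ARF, showed the widest contrast of the genes given here. It measured 11.6 to 44.5 FPKM in KO tumors and 0.0906 to 1.72 FPKM in KO normal tissue, and 2.27 to 45.6 FPKM in WT tumors and 0.0521 to 0.534 FPKM in WT normal tissue. Its limma rise was 3.57 ± 0.39 (SE, adjusted p = 8.7e-07) and 3.87 ± 0.50 (SE, adjusted p = 2.3e-05), and gene-level FPKM cannot separate its transcripts. Mdm4, the partner of Mdm2, differed by 0.57 ± 0.22 (SE, limma adjusted p = 0.040) under the KO label and by 0.29 ± 0.29 (SE, limma adjusted p = 0.46) under the WT label. Without KO-8-hetero normal replicate 2 the KO difference of Mdm4 was 0.26 (limma adjusted p = 0.11). Among 18 tested genes of a list of p53 regulators, which includes these 3, 9 were higher and 0 lower in KO tumors and 6 were higher and 0 lower in WT tumors, with medians of 0.26 and 0.27. Over all genes tested, 24.1% were higher and 23.2% lower in KO tumors and 15.5% higher and 14.8% lower in WT tumors, and the counts below stand against the same shares. Bcl6, a repressor of Trp53 transcription, was among them at 0.75 and 0.81 (limma adjusted p = 0.0067 and 0.028).

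Other p53 targets changed in both directions, with more calls higher than lower. Of 35 further targets tested, 15 were higher and 4 lower in KO tumors and 8 were higher and 2 lower in WT tumors, with medians of 0.23 and 0.21. Gtse1, a cell-cycle gene that restrains p53, rose by 1.16 and 1.31 under the KO and WT labels (limma adjusted p = 1.2e-06 and 2.1e-05). The death receptor gene Tnfrsf10b rose by 0.80 and 0.37 (limma adjusted p = 4.1e-06 and 0.037), and Pidd1, a death-domain adaptor, by 0.65 and 0.70 (limma adjusted p = 6.5e-06 and 1.3e-04). Pmaip1 (NOXA), like Bbc3 a BH3-only gene, rose by 0.79 and 1.03 (limma adjusted p = 0.027 and 0.034). Gadd45a, a growth arrest gene induced by DNA damage, fell by 0.46 on the log2 scale under the KO label and by 1.04 under the WT label (limma adjusted p = 0.016 and 5.0e-04). Ei24 fell by 0.34 and 0.40 (limma adjusted p = 0.012 and 0.027), and Fdxr, the mitochondrial ferredoxin reductase, fell by 0.53 under the KO label (limma adjusted p = 0.0032) and differed by -0.45 under the WT label (limma adjusted p = 0.052). The death receptor gene Fas, the stress cytokine gene Gdf15 and the sestrin gene Sesn1 passed under neither label, with differences of -0.33, 0.17 and -0.32 under the KO label and 0.10, -0.68 and -0.55 under the WT label.

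The families around the members were mixed as well. Of 12 genes of the BCL2 family other than Bax and Bbc3, 6 were higher and 1 lower in KO tumors and 4 were higher and 1 lower in WT tumors. The BH3-only gene Bcl2l11 (BIM) rose by 0.92 and 0.97 (limma adjusted p = 7.2e-04 and 0.0062), and Bcl2a1a, a survival gene expressed in neutrophils, by 1.13 and 1.61 (limma adjusted p = 0.0011 and 9.8e-04). Bad was the member that fell, by 0.76 and 0.48 (limma adjusted p = 7.7e-05 and 0.030). Bak1, the close relative of Bax, differed by -0.01 and 0.05 (limma adjusted p = 0.98 and 0.87). The survival genes Bcl2, Bcl2l1 and Mcl1 differed by 0.34, 0.68 and -0.46 under the KO label, of which Bcl2l1 passed (limma adjusted p = 0.0071), and by 0.21, 0.60 and -0.14 under the WT label, of which none of the 3 passed. Of 6 other inhibitors of cyclin-dependent kinases, the group of Cdkn1a, 2 were higher and 3 lower in KO tumors. In WT tumors 1 was higher and 2 were lower. Cdkn2a rose under both labels and Cdkn1b fell under both, by 0.38 and 0.40 (limma adjusted p = 0.0057 and 0.030). Cdkn2b fell by 0.47 and 0.70 (limma adjusted p = 0.042 and 0.028), while Cdkn1c rose by 1.32 under the KO label (limma adjusted p = 0.0072; WT difference 0.46, adjusted p = 0.49). Cdkn2c averaged 6.76 FPKM in KO tumors and 10.2 FPKM in KO normal tissue, and 7.44 and 7.30 FPKM under the WT label. Sesn2 is also a target of the stress factor ATF4. Of 12 other ATF4 targets, 6 were higher and 1 lower in KO tumors and 3 were higher and 0 lower in WT tumors, led by the cystine transporter gene Slc7a11 at 1.61 and 1.80 (limma adjusted p = 1.7e-05 and 2.2e-04).

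Some of these calls lay close to the threshold and did not hold in every fit without 1 library. Mdm4 and Cdkn2b under the KO label lost theirs in 8 of the 24 such fits each, Pmaip1 there in 3 and Gadd45a in 1, with limma adjusted p-values of up to 0.11, 0.10, 0.085 and 0.052. Under the WT label Tnfrsf10b and Pmaip1 lost theirs in 6 fits each (limma adjusted p up to 0.14 and 0.16), Cdkn1b in 5 (up to 0.11), Cdkn2b in 4 (up to 0.092), Bad in 3 (up to 0.081) and Bcl6 and Ei24 in 2 each (up to 0.097 and 0.10). The KO difference of Ei24 was -0.22 without KO-8-hetero normal replicate 2 and was still called (limma adjusted p = 0.027). In the other direction, Fdxr and Bcl2l1 under the WT label passed in 5 and 2 fits, Mcl1 under the KO label in 5, and Sesn1 under the WT label in 1, without the WT-old tumor (-0.92, limma adjusted p = 0.030).

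KO against WT tumors gave no call among the 10 genes. By limma 0 of 10 passed, against 0.00725% of all genes, which is 1 gene. At an unadjusted p below 0.05, 4 of the 10 genes and 1147 genes in all were counted. The 4 were Sesn2 at 0.52 ± 0.17 (SE, limma adjusted p = 0.43), Zmat3 at 0.34 ± 0.15 (SE, limma adjusted p = 0.53), Ccng1 at 0.29 ± 0.13 (SE, limma adjusted p = 0.55) and Phlda3 at 0.55 ± 0.27 (SE, limma adjusted p = 0.60), each with the higher mean under the KO label. The 10 genes had a median difference of 0.25, with 8 of 10 above 0, against -0.01 for all genes. KO and WT tumors overlapped for all 10 genes, and 0.601% of all genes did not overlap. For Sesn2 the KO tumors ran from 3.15 to 5.65 FPKM and the WT tumors from 2.104 to 3.37 FPKM, and a single KO tumor, KO-1-hetero replicate 3, lay inside the WT range. In normal tissue 0 of 10 genes and 0% of all genes passed. At an unadjusted p below 0.05 the normal counts were 1 of the 10 genes and 645 genes in all, and the 1 gene was Ccng1 at 0.37 ± 0.15 (SE, limma adjusted p = 1.0).

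The title groups were compared next. Across the 5 title groups of tumors, limma's moderated F test called 1 of the 10 genes, Cdkn1a (F = 5.82, adjusted p = 0.042), against 9.94% of all genes. Cdkn1a measured 81.3 ± 10.1 FPKM in KO-1-hetero tumors (SD, n = 3) and 69.4 FPKM in the WT-old tumor. It measured 133 ± 25.9 FPKM in KO-8-hetero tumors (SD, n = 3), 132 ± 22.7 FPKM in KO-8-homo tumors (SD, n = 3) and 126 ± 17.2 FPKM in WT-young tumors (SD, n = 4). All 3 KO-1-hetero tumors and the WT-old tumor lay below all 10 other tumors. The call was lost in 16 of 24 fits without 1 library: any KO-1-hetero, any WT-old, any KO-8-homo other than tumor replicate 3, or any WT-young tumor library. Without the WT-old tumor the adjusted p of the limma F test was 0.18. The lowest and highest adjusted p over all alternatives were 0.0088 and 0.21. In normal tissue the KO-1-hetero libraries had Cdkn1a at 86.6 and 70.8 FPKM, the KO-8-hetero ones at 130 and 150.4 FPKM and the WT-young ones at 69.1 and 133 FPKM, and the F test of Cdkn1a there did not pass (limma adjusted p = 0.19). The F test over normal title groups called 0 of 10 genes, against 3.02% of all genes. Mdm2 had the smallest p of the 10 there (F = 5.75, limma unadjusted p = 0.0040, adjusted p = 0.073), and it was the 1 gene under 0.05 unadjusted. For the tumor difference across title groups the F test again called 0 of 10 genes, against 8.23% of all genes. Mdm2 was once more the 1 gene under 0.05 unadjusted (F = 3.39, limma unadjusted p = 0.033, adjusted p = 0.14).

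Against the WT-young tumors, non-overlapping ranges were few. KO-1-hetero tumors lay all above in Ccng1 and all below in Cdkn1a, 2 of 10 genes against 27.4% of all genes. KO-8-hetero tumors lay all above in Sesn2, 1 of 10 genes against 7.44% of all genes. KO-8-homo tumors lay all above in Eda2r and Sesn2, 2 of 10 genes against 21.2% of all genes. Eda2r measured 7.68, 5.69 and 5.71 FPKM in KO-8-homo tumors and at most 5.35 FPKM in WT-young tumors. KO-8-homo tumors lay all above KO-8-hetero tumors in Eda2r and Trp53inp1, 2 of 10 genes against 9.22% of all genes. These shares are close to or below the background, except that 2 of 10 exceeds 9.22%, which was not tested further.

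**Figure D3:**
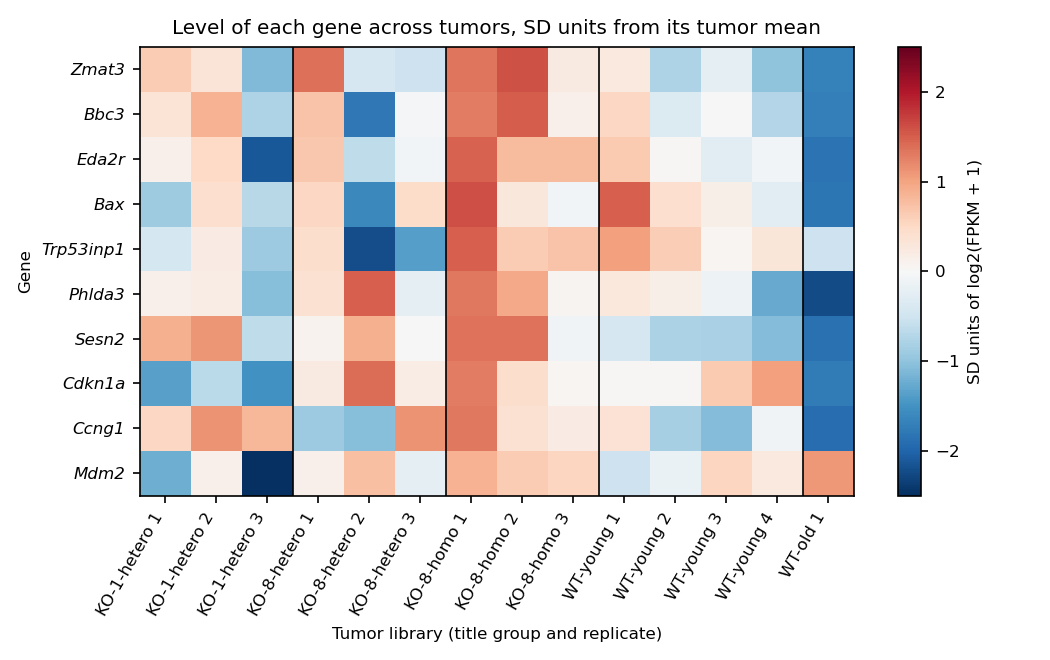
Level of each of the 10 genes (rows) in each of the 14 tumor libraries (columns, by title group), in SD units of log2(FPKM + 1) from the gene's mean over tumors; red is high and blue is low. KO-8-homo replicate 1 is red in all rows, and the WT-old tumor is blue in all rows but Mdm2.

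From tumor to tumor, 7 of the 10 genes had at least 1 partner among the members with which their levels were correlated past the threshold, and 3 had none. Of the 45 pairs, 44 had a positive Pearson correlation of log2(FPKM + 1) over the 14 tumors, with a median r of 0.50. Over all pairs of the 13799 tested genes, 49.8% were positive and the median r was 0.00. Positive pairs numbered 40 without the WT-old tumor and 37 without the tumors with Xist above 1 FPKM. The share of all gene pairs that would pass a like test was not determined, so counts of passing pairs and partners lack that background. By a permutation test with 100000 resamples, adjusted over the 45 pairs, 12 pairs passed 0.05, and all 12 were positive. The highest were Zmat3 with Bbc3 (r = 0.87, p = 9.0e-05, adjusted p = 0.0020; rho = 0.90, p = 2.0e-05) and Phlda3 with Sesn2 (r = 0.84, p = 8.0e-05, adjusted p = 0.0020; rho = 0.77, p = 0.0019). Eda2r had the most partners past the threshold, 5 of 9, and correlated with Zmat3 at r = 0.82 (permutation adjusted p = 0.0038, rho = 0.81, permutation p = 8.6e-04) and with Bbc3 at r = 0.80 (permutation adjusted p = 0.0069, rho = 0.85, permutation p = 2.5e-04). Over all 14 tumors Cdkn1a, Mdm2 and Ccng1 had 0 partners past the threshold. The lowest correlation was that of Mdm2 with Ccng1 (r = -0.39, permutation p = 0.17, adjusted p = 0.27; rho = -0.38). By Spearman's rho, 10 pairs passed after adjustment. The permutations exchanged tumors across title groups, and the part of title group differences in these correlations was not tested.

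**Figure D4:**
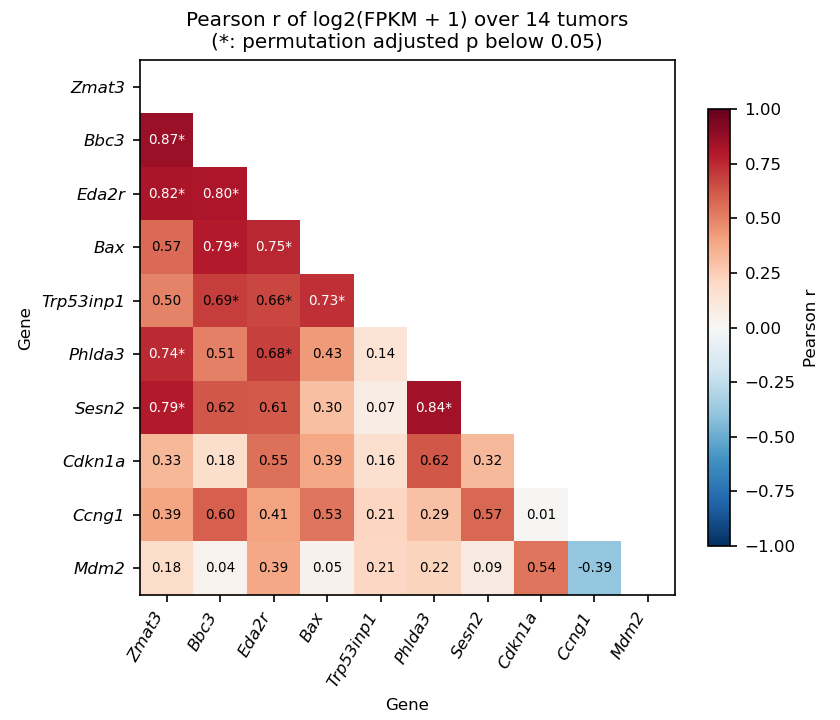
Pearson correlation of log2(FPKM + 1) over the 14 tumors for each pair of the 10 genes; both axes list the genes, colour and number give r, and an asterisk marks a permutation adjusted p below 0.05. The asterisks fall among Zmat3, Bbc3, Eda2r, Bax, Trp53inp1, Phlda3 and Sesn2, and the rows of Cdkn1a, Ccng1 and Mdm2 hold none.

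Leaving out for each pair the 2 tumors farthest from the median of its first gene, all 12 pairs kept an r above 0.5, with 0.77 for Zmat3 with Bbc3 and 0.70 for Phlda3 with Sesn2. Without the WT-old tumor 10 pairs passed, and the median r of all 45 was 0.39. Of the 12 pairs 9 were kept, and Phlda3 with Eda2r (r = 0.52, permutation adjusted p = 0.21), Phlda3 with Zmat3 (r = 0.64, permutation adjusted p = 0.063) and Eda2r with Bax (r = 0.65, permutation adjusted p = 0.063) were lost, while Cdkn1a with Mdm2 entered. Without the tumors with Xist above 1 FPKM 10 of the 12 were kept, and Phlda3 with Eda2r and Eda2r with Trp53inp1 were lost (permutation adjusted p = 0.077 and 0.068). There 3 pairs with Ccng1 entered, those with Eda2r, Sesn2 and Bbc3, so 13 pairs passed. The pair of Eda2r and Trp53inp1 was also lost with a pseudocount of 0.1 (permutation adjusted p = 0.056). Within the 9 KO tumors, an exact permutation test called 6 pairs, of which 3 were among the 12. These included Zmat3 with Bbc3 (r = 0.82, exact permutation p = 0.0055, adjusted p = 0.042, rho = 0.87) and Eda2r with Zmat3 (r = 0.84, exact permutation p = 0.0017, adjusted p = 0.027, rho = 0.72). In KO tumors Cdkn1a also correlated with Mdm2 (r = 0.85, exact permutation p = 6.6e-04, adjusted p = 0.027, rho = 0.85) and with Phlda3 (r = 0.84, exact permutation p = 0.0051, adjusted p = 0.042, rho = 0.85). Among KO tumors Cdkn1a was lowest in the KO-1-hetero ones, and Mdm2 in KO-1-hetero replicates 3 and 1 (14.5 and 16.7 FPKM). The permutations ignored title group, so title group differences and variation between single tumors cannot be told apart there. By Spearman's rho the exact permutation adjusted p-values of the 6 pairs called in KO tumors ran from 0.068 to 0.15, above the threshold. Phlda3 with Sesn2 was among the pairs lost in KO tumors (r = 0.79, exact permutation adjusted p = 0.060). The 5 WT tumors are too few for a correlation of their own.

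Averaging the 10 genes after scaling each over the tumors gave 1 level per tumor. KO-8-homo tumor replicates 1 and 2 were highest at 1.33 and 0.86 SD units, and the WT-old tumor and KO-1-hetero tumor replicate 3 were lowest at -1.43 and -1.07. The WT-old tumor stood apart in its markers too, with a smooth muscle sum of 2877 FPKM and a B and plasma cell sum of 1962 FPKM, against at most 1293 and 953.6 FPKM in the other tumors. Its neutrophil sum of 43.6 FPKM was the lowest of the tumors. KO-8-homo tumor replicate 1 had a neutrophil sum of 1710 FPKM, next to the highest of 1863 FPKM in KO-8-hetero tumor replicate 2, whose mean level of the 10 genes was -0.32. The part of these differences in the correlations was not tested. The genes most like this mean level over the 14 tumors, by Pearson r as a description, were Knop1 (0.94), Bmp7 (0.93), Hs2st1 (0.92), Tanc2 (0.91) and Pgf (0.91). Of these, only Bmp7 and Knop1 stayed among the 5 highest without the WT-old tumor. Without the tumors with Xist above 1 FPKM only Knop1 did. Of the 35 further p53 targets, Ddit4 and Abhd4 were among the 100 of 13789 genes most like the mean level. Without the WT-old tumor only Ddit4 was. The median r of the 35 targets was 0.32 against -0.05 for all genes, and Fas, at -0.81, was among those that ran the other way.

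By position, the 10 genes lie on 8 chromosomes in the GENCODE M21 annotation of GRCm38, with Bax and Bbc3 on chromosome 7 and Sesn2 and Trp53inp1 on chromosome 4. Exons of Cdkn1a overlap those of a second annotated gene on the opposite strand, and exons of Bax overlap those of a second gene on the same strand. Neither of those genes is listed by symbol in the tables, so reads shared with them may be included in the values of Cdkn1a and Bax.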

How the data were processed

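Per the labels' protocols, a miRNeasy kit gave total RNA, and a stranded TruSeq mRNA kit the libraries. The authors deposited 1 FPKM value per gene symbol and library. Bowtie2 2.2.8, TopHat2 2.1.1, SAMtools 0.1.18, Cuffdiff 2.2.1 and the build mm10 are named, without their roles, per the submitters' processing notes; the annotation and the use of strand in counting are not given in the sources used here. Fragment totals are unknown, so relative depth was estimated from ratios of values under 1 FPKM, and no counting interval is given.

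Values were used as log2(FPKM + 1) without rescaling. Genes with at least 1 FPKM in at least 4 libraries were fitted with limma 3.58.1 (R 4.3.3; eBayes with trend, two-sided, Benjamini-Hochberg over 13799 genes, threshold 0.05). All 24 libraries entered a model of the 4 combinations of label and tissue, or a model of the 10 title groups for the F tests. The fits were tried on simulated data with known changes but no other differences between title groups, so such differences are not covered. For the F tests only the recovery of changed genes was recorded there, not false calls. Correlations over tumors used two-sided permutation tests (scipy 1.17.1, Python 3.11.15). Alternatives were a pseudocount of 0.1, no filter, median-of-ratios scaling, robust eBayes, equal weights of title groups, a replicate block, and leaving out the WT-old libraries, libraries with Xist above 1 FPKM, or each library. The fit with equal weights used the model of the 10 title groups, so its spread also differed from that of the main fit. For tumor-normal differences and their comparison between labels or title groups, the block was title group with replicate number. Libraries without a partner of the same number in the other tissue were left out there. For comparisons within a tissue the block was the replicate number over all libraries. An alternative without 2 libraries that stand apart was chosen after seeing the data.

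The 10 genes and all lists were chosen with earlier results of these data known. Named by rule were the 10 genes, Trp53, Mdm4, Cdkn2a, a few close relatives, and from other p53-related lists up to 3 genes in each direction with the smallest KO-label p, of which a part is given. The 5 genes most like the mean level were named by Pearson r. Of the listed symbols, Muc3, Ly6g and Trac were not found, and Zfp365, Trp63, Trp73 and Hrk were not tested because of low values. Promoters came from RefSeq (GRCm38.p6); 8 of the 10 genes matched, and Trp53inp1 and Zmat3 did not.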

Additional observations from a re-analysis of the deposited data

Results flagged for a closer look

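In normal tissue under the KO label, KO-8-hetero replicate 2 lay far from the 5 other libraries in 2 of the 10 genes. Mdm2 measured 2.91 FPKM there, and the nearest other KO normal library measured 9.53 FPKM. Bax measured 108 FPKM there, and the nearest other measured 62.9 FPKM. In log2(FPKM + 1) the gap to the nearest library was a large share of the whole range, 0.716 for Mdm2 and 0.896 for Bax. These were 2 such gaps among 50 groups of 4 to 10 libraries examined, and chance gives about 1 in 20, so the number of gaps is no higher than that share. The groups are not all separate, since WT-young tumors were examined alone and within the WT tumors. The FPKM values of this library summed to 1016814, the highest of the 24 libraries.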

How the results depend on the processing

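The calls of Phlda3 and Eda2r held in all 33 alternatives under both labels, and those of Mdm2, Bax and Zmat3 in all 33 under the KO label. Over all alternatives, 3 to 5 of the 10 genes were called in tumors under the WT label and 5 to 7 under the KO label. Bax under the WT label was also lost with the replicate block (0.62, limma adjusted p = 0.17). Of the values for single genes and pairs, 1759 kept their direction and side of the threshold, 41 fell below it, 22 passed it and 11 changed sign. Sign changes touched values near 0: Cdkn1a under the WT label was -0.17 with title groups weighted equally and -0.071 with the replicate block, and -0.12 to 0.25 when 1 library was left out. Under the KO label Cdkn1a ran from -0.040 to 0.17. With equal weights, WT-labelled Zmat3 and Bbc3 were -0.027 and -0.035. WT-labelled Sesn2 was 0.19 without the WT-old libraries and 0.040 without both libraries that stand apart (WT-old tumor and KO-8-hetero normal replicate 2), and -0.16 to 0.17 when 1 library was left out.

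Counts over all genes moved more, and the cause was not tested. Equal weights changed both the weights and the spread, which was then taken within title groups. Tumor against normal called 4192 genes under the WT label, 2661 without the WT-old libraries and 2233 with the replicate block, which left out unpaired libraries. Under the KO label it called 6520, and 3652 without libraries with Xist above 1 FPKM. KO against WT tumors called 1 gene: 0 with the pseudocount of 0.1, no filter, the replicate block, or without the WT-old or the Xist libraries, 771 with equal weights, 5 without both libraries that stand apart and 0 to 2 without 1 library. In normal tissue equal weights called 7 genes. The interaction called 0 genes, 218 with equal weights, 7 without the Xist libraries, 1 without both libraries and 0 to 1 without 1 library. Across title groups of tumors, 1372 genes became 96 without the WT-old libraries, 113 without both libraries and 90 to 2161 without 1 library, and the 1 member became 0, 0 and 0 to 2, and 2 with the replicate block. With the block these were Phlda3 and Eda2r (limma adjusted p = 0.045 and 0.048), and Cdkn1a was not called (0.071). Without the Xist libraries or without KO-1-hetero tumor replicate 3 the member called was Eda2r (0.047 and 0.034) and not Cdkn1a (0.12 and 0.11). Without KO-8-hetero tumor replicate 1 Trp53inp1 was called too (0.037). Across normal title groups, 417 genes became 796 without the WT-old libraries, 4 without the Xist libraries, 86 without both libraries and 85 to 3841 without 1 library, with 0 to 1 members. For the tumor difference across title groups, 1135 genes became 214, 68 without both libraries, 49 with the replicate block and 161 to 4167 without 1 library, with 0 to 1 members. In the 2 last tests the single member was Mdm2 without KO-8-hetero normal replicate 1 or Cdkn1a without WT-young normal replicate 2. For the members, KO against WT stayed at 0 called in every alternative.

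Whether replicate numbers pair tumor and normal libraries is not known. Correlations of their deviations from the title group mean ran from -0.16 to 0.36 over 8 pairs. With 2 normal libraries per title group these deviations mirror each other, so the correlations are not independent and cannot settle pairing. Precision is limited by the single WT-old tumor, by 2 normal libraries per title group, and, for Eda2r, Sesn2, Zmat3 and Bbc3, by low values at an unknown depth.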
